A study of Mus musculus with 11 samples.

Results

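The nuclear receptors are transcription factors whose activity many small lipophilic molecules control, and 36 of their genes were followed here in gonadal white adipose tissue of 14-3-3ζKO and wild-type (WT) mice. The 36 genes were chosen by symbol, and 37 of the 36834 loci with a gene symbol carried them (42815 loci in all). Every member had a locus of its symbol alone. Where a symbol had several loci, as Rara did, the locus of the highest mean was used. The 14-3-3ζKO mice lacked the scaffold protein 14-3-3ζ, encoded by Ywhaz, in the whole body, so the adipocytes, the other cells of the depot and all other tissues shared the deletion. The WT mice were their littermates. Both groups were male C57Bl/6 mice killed at 50 weeks of age and housed singly, with 5 14-3-3ζKO and 6 WT libraries. Chow is named as the diet in the labels and a low-fat diet in the study's account of this tissue, so the diet of these mice is uncertain.

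Most nuclear receptors hold 2 zinc fingers that bind DNA, and a domain that binds a ligand and recruits coactivators or corepressors. Receptors for retinoids, thyroid hormone, vitamin D, oxysterols, bile acids and fatty acids mostly bind DNA as heterodimers with a retinoid X receptor, the steroid receptors bind as homodimers, and several orphan receptors bind alone or as homodimers. In fat tissue, the family is best known for PPARγ, which directs the formation of adipocytes, and for the receptors that tune fatty acid use, cholesterol efflux and the response to steroids. In members with zinc fingers, the DNA half-site is chosen largely by a short stretch at the end of the first finger, the P-box.

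The coding bases of the first finger are shown for 1 member of most P-box groups, because the 2 members with the largest differences, Nr2c2 and Hnf4a, fell into different groups. Both fingers were found in 34 members and in neither Nr0b1 nor Nr0b2, which lack a DNA-binding domain. Each stretch below has 69 bases of the transcript, 5′ to 3′, from GENCODE transcripts on build NCBIM37, with the 15 bases of the P-box in capitals.
Nr2c2: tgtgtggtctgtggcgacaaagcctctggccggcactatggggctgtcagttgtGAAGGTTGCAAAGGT
Nr2f2: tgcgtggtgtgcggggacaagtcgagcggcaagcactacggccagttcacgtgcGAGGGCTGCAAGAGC
Esrra: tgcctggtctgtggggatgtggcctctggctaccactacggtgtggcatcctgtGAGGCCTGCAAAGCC
Esr1: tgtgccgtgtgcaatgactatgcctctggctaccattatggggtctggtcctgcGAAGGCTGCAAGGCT
Hnf4a: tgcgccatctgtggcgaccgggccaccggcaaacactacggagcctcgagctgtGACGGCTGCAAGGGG
Nr5a1: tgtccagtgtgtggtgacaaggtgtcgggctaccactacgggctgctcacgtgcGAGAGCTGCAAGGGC
The P-box residues of Nr2c2 are shared by 20 of the 34 members, among them the PPARs, retinoid X receptors, retinoic acid receptors and thyroid hormone receptors. That of Nr2f2 stands for 3 members (Nr2f1, Nr2f2, Nr2f6), that of Esrra for the 3 oestrogen-related receptors, and those of Esr1, Hnf4a and Nr5a1 for 2 each (with Esr2, Hnf4g and Nr5a2). Over the 69 bases, Nr2c2 shared 53 with Nr2c1, 49 with Rxra and 46 with Hnf4a, and Hnf4a shared 53 with Hnf4g and 53 with Rxra. The stretch lies in 1 coding exon in Nr2f2 (chr7:77504913-77504981, minus strand), Esrra (chr19:6994575-6994643, minus strand), Esr1 (chr10:5599756-5599824, minus strand) and Hnf4a (chr2:163377375-163377443, plus strand). An intron interrupts it in Nr2c2 (chr6:92102384-92104369, plus strand, after 28 bases) and in Nr5a1 (chr2:38566069-38566241, minus strand, after 66 bases).

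RNA was measured as FPKM, the number of sequenced fragments of a transcript corrected for its length and for the amount of sequencing. How that amount was scaled between libraries is not given. The deposited files hold 1 FPKM value per genotype for every locus and values per library for 86 loci, and 0 of the 36 members were among those 86. The members' spread between animals is therefore not known here, no difference between their values could be tested, and each value below is the deposited value for the group, with no error attached. How deeply each library was sequenced is also unknown. Among the loci with values per library, Ywhaz had 14.5, 17.1, 18.7, 24.1 and 38.2 FPKM in the 14-3-3ζKO libraries, against a range of 94.2 to 118 FPKM with a median of 109 FPKM in the WT libraries, and the groups did not overlap. The summed FPKM of the 7 macrophage markers with values per library was 125 to 228 in 14-3-3ζKO libraries. In WT libraries, it was 1737, 433, 2449, 2419, 351 and 226 in replicates 1 to 6, so replicates 1, 3 and 4 stood apart from the other WT libraries. Which part these 3 libraries had in the WT values of the members could not be computed, since each WT value covers the whole group.

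Of the 36 members, 26 averaged at least 1 FPKM over both genotypes and 10 did not. A member was counted as past 2-fold where its log2(FPKM + 1) differed by at least 1 between the genotypes and its mean reached 1 FPKM. By that rule 2 members were higher in 14-3-3ζKO tissue, Nr2c2 (the testicular receptor TR4) and Hnf4a (a receptor that sets the expression programme of hepatocytes), and 0 were lower. Of the 14396 loci with a symbol at or above 1 FPKM, 7.95% were higher and 4.38% were lower by the same rule, so the count of 2 among 26 is near the background and is not a result about the family. With a 1.5-fold limit, Vdr and Esr1 joined them as higher and 0 members were lower, against 15.7% higher and 10.7% lower among all loci. The median difference of the 26 members was 0.20 on the log2(FPKM + 1) scale and that of all loci was 0.02. It was above 0 in 18 members (69.2%) and below 0 in 8, against 52.1% of all loci above 0. For 21 of the 26 members (80.8%), the difference was under 0.5 in either direction, as it was for 68.3% of all loci. Of the 26 members, 5 (Hnf4a, Esrrg, Nr6a1, Vdr and Nr1h4) had under 1 FPKM in WT tissue and reached the mean of 1 FPKM through their 14-3-3ζKO value, while 0 members did so through WT. These values come from whole tissue, where fewer cells of a type and less RNA per cell cannot be told apart.

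**Figure D1:**
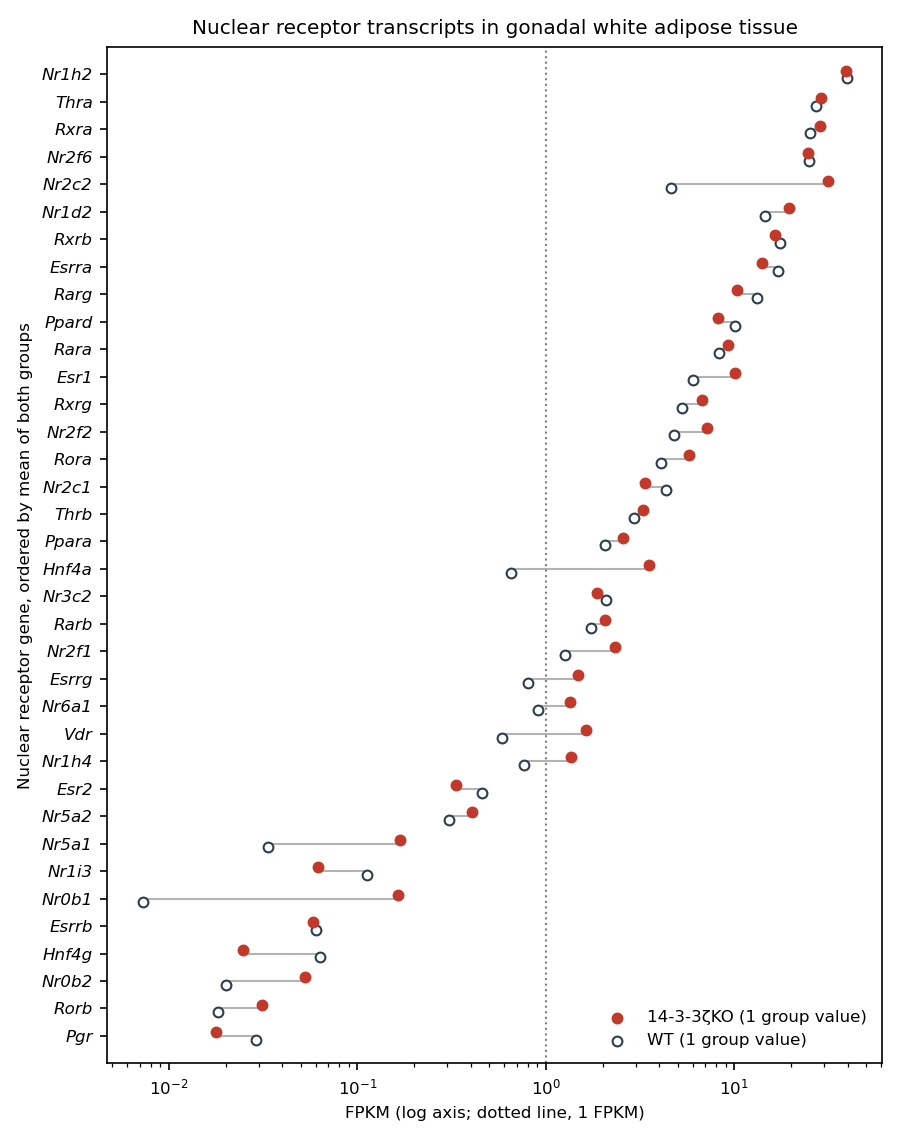
FPKM of the 36 nuclear receptor genes (log axis), ordered by the mean of both genotypes, with the group value of 14-3-3ζKO (filled) above that of WT (open) and a line joining them. Nr2c2 (31.2 and 4.61 FPKM) and Hnf4a (3.51 and 0.651 FPKM) show the widest gaps among the members right of the dotted line at 1 FPKM.

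The levels spread over a wide range, and their order was much the same in both genotypes. Nr1h2 had the highest level of the 36 in 14-3-3ζKO and in WT tissue. Thra, Rxra and Nr2f6 ranked 3, 4 and 5 in 14-3-3ζKO tissue and 2, 3 and 4 in WT tissue. Nr2c2 took rank 2 in 14-3-3ζKO tissue and rank 14 in WT tissue, and Hnf4a rank 16 and rank 25. With 1 value per genotype, it is not known which neighbours in this order differ beyond the spread between animals.

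Nr2c2 had 31.2 FPKM in 14-3-3ζKO tissue and 4.61 FPKM in WT tissue, a ratio of 6.78 and a difference of 2.52 on the log2(FPKM + 1) scale. A difference at least this far above 0 was rare: 0.75% of the 14396 loci had a larger one, as did 0.883% of the 3509 loci averaging 15 to 50 FPKM. Nr2c2 encodes TR4, an orphan receptor that binds direct repeats and is abundant in testis. Nr2c1, which encodes the closely related TR2, had 3.34 FPKM in 14-3-3ζKO tissue and 4.34 FPKM in WT tissue (difference −0.30). The close relatives therefore lay on opposite sides of 0. The Nr2c2 gene lies on the plus strand at chr6:92041384-92123051 (NCBIM37), and its last 3533 bases overlap Mrps25, a mitochondrial ribosomal protein gene on the minus strand. Mrps25 had 23.9 FPKM in 14-3-3ζKO tissue and 24.6 FPKM in WT tissue (difference −0.04). Whether reads were assigned by strand is not stated, and how reads of the shared bases were divided was not tested.

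Genes of spermatids and sperm were higher in 14-3-3ζKO tissue together with Nr2c2. Of 6 such markers, 5 were past 2-fold, with differences of 0.62 to 4.43 and a summed level of 596 FPKM in 14-3-3ζKO tissue and 64.9 FPKM in WT tissue. Gonadal fat lies against the testis and epididymis, and the 9 markers of the epididymal epithelium had a summed level of 4759 FPKM in 14-3-3ζKO tissue and 7628 FPKM in WT tissue (1 of the 8 at or above 1 FPKM past 2-fold lower), the opposite direction to Nr2c2. Nr6a1, the germ cell nuclear factor, had 1.34 FPKM in 14-3-3ζKO tissue and 0.904 FPKM in WT tissue (difference 0.30). The part of sperm RNA in the Nr2c2 and Nr6a1 values was not tested.

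Hnf4a had 3.51 FPKM in 14-3-3ζKO tissue and 0.651 FPKM in WT tissue, a ratio of 5.39 and a difference of 1.45. A larger difference was found in 4.42% of all loci and in 8.23% of the 4606 loci averaging 1 to 5 FPKM. Hnf4a lies at chr2:163332544-163398646 (plus strand, NCBIM37) and is known for its role in liver, kidney and gut epithelium. Its relative Hnf4g had 0.0247 FPKM in 14-3-3ζKO tissue and 0.0633 FPKM in WT tissue, both near 0. Markers of hepatocytes moved with Hnf4a. All 8 of the 8 listed hepatocyte markers were past 2-fold higher in 14-3-3ζKO tissue, with differences of 2.21 to 3.77 and a summed level of 3572 FPKM in 14-3-3ζKO tissue and 355 FPKM in WT tissue (745 and 76.6 FPKM in the same order without Cyp2e1, the most abundant of them). The epithelial markers of the mesothelium, the sheet of cells that covers the depot, were also higher. Past 2-fold higher were 3 of these 8 markers and 7.95% of all loci. The summed level of all 8 markers was 592 FPKM in 14-3-3ζKO tissue and 185 FPKM in WT tissue. The keratin genes Krt8, Krt18 and Krt19 were the 3 past 2-fold and made up most of these sums. They had 250, 184 and 96.6 FPKM in 14-3-3ζKO tissue and 50.8, 69.1 and 31.7 FPKM in WT tissue. The rest (Msln, Upk3b, Wt1, Lrrn4 and Upk1b) had differences of 0.04 to 0.95. The part of either cell type in the Hnf4a value was not tested.

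**Figure D2:**
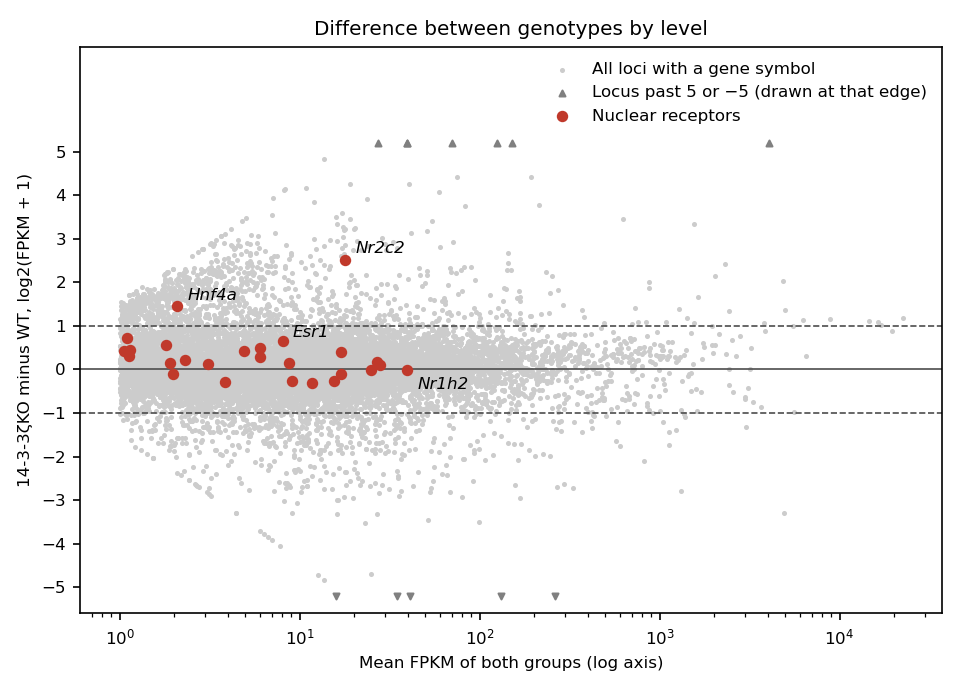
Difference of log2(FPKM + 1), 14-3-3ζKO minus WT, against the mean FPKM of both genotypes (log axis) for the 26 nuclear receptors (large points) and all 14396 loci with a symbol at or above 1 FPKM (small points). Dashed lines mark 2-fold, 7 higher and 5 lower loci that differed by more than 5 are drawn as triangles at the edge, and only Nr2c2 (2.52) and Hnf4a (1.45) lie past a dashed line among the 26.

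The retinoid X receptors, the partners that most ligand-bound heterodimers need, were close to equal in both genotypes. Rxra had 28.5 FPKM in 14-3-3ζKO tissue and 25.1 FPKM in WT tissue (difference 0.18), and Rxrb had 16.3 and 17.6 FPKM in the same order (difference −0.10). Rxrg, the least abundant of the group, had 6.73 FPKM in 14-3-3ζKO tissue and 5.30 FPKM in WT tissue (difference 0.30). Summed over the 3 genes, the level was 51.6 FPKM in 14-3-3ζKO tissue and 48.0 FPKM in WT tissue.

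The PPARs sense fatty acids and their derivatives. Ppara, the isotype known for driving fatty acid oxidation in liver, had 2.57 FPKM in 14-3-3ζKO tissue and 2.06 FPKM in WT tissue (difference 0.22). Ppard, which is expressed in many tissues, had 8.16 FPKM in 14-3-3ζKO tissue and 10.04 FPKM in WT tissue (difference −0.27). Pparg, which is not a member and is named for its role in adipocytes, was far above both with 103 FPKM in 14-3-3ζKO tissue and 91.2 FPKM in WT tissue (difference 0.17). None of the 3 PPAR genes was near the 2-fold limit.

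Of the 15 PPAR target genes that averaged at least 1 FPKM, 4 were past 2-fold higher in 14-3-3ζKO tissue and 0 were lower. Among all loci, 7.95% were higher and 4.38% lower by the same rule. The median difference was 0.25 for the 15 genes and 0.02 for all loci. Of the 15 differences (−0.69 to 2.32), 11 were above 0 and 4 below, against 52.1% of all loci above 0. Fgf21, 1 of the 15, reached a mean of 1 FPKM only through its 14-3-3ζKO value (2.08 FPKM, against 0.576 FPKM in WT tissue). Pdk4, whose kinase restrains glucose oxidation, had 114 FPKM in 14-3-3ζKO tissue and 22.03 FPKM in WT tissue (difference 2.32). Vnn1, a pantetheinase, had 6.79 FPKM in 14-3-3ζKO tissue and 1.84 FPKM in WT tissue (difference 1.46). The other members of the list past the limit were the locus shared by Cpt1b and Chkb (97.1 FPKM in 14-3-3ζKO and 38.3 FPKM in WT tissue), in which Cpt1b encodes the muscle form of the carnitine transferase of fatty acid oxidation, and Ehhadh, a peroxisomal oxidation enzyme (25.9 FPKM in 14-3-3ζKO and 10.6 FPKM in WT tissue). Adipocyte markers had a median difference of 0.33, with 3 of 11 past 2-fold higher and 1 lower. Their summed level was 45888 FPKM in 14-3-3ζKO tissue and 21481 FPKM in WT tissue, and without Fabp4 and Cfd it was 6996 FPKM in 14-3-3ζKO tissue and 5760 FPKM in WT tissue. The part of adipocyte content in these target genes was not tested.

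The retinoic acid receptors, which bind all-trans retinoic acid, differed little between the genotypes. Rara had 9.21 FPKM in 14-3-3ζKO tissue and 8.28 FPKM in WT tissue (difference 0.14), with 0.337 and 0.195 FPKM in the same order at its other locus. Rarb, a receptor gene that retinoic acid itself induces, had 2.05 FPKM in 14-3-3ζKO tissue and 1.74 FPKM in WT tissue (difference 0.16). Rarg had 10.4 FPKM in 14-3-3ζKO tissue and 13.2 FPKM in WT tissue, and its difference of −0.32 was the lowest of the 26 members. Among 12 measured genes of retinoid metabolism and response, 2 were past 2-fold higher and 0 were lower, where 7.95% and 4.38% of all loci were. Crabp1, a carrier that binds retinoic acid in the cytosol, reached a mean of 1 FPKM only through its 14-3-3ζKO value and had 8.02 FPKM in 14-3-3ζKO tissue and 0.774 FPKM in WT tissue (difference 2.35). Aldh1a3, an enzyme that makes retinoic acid, had 33.9 FPKM in 14-3-3ζKO tissue and 15.6 FPKM in WT tissue (difference 1.07).

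Both thyroid hormone receptors were almost level. Thra had 28.8 FPKM in 14-3-3ζKO tissue and 27.0 FPKM in WT tissue (difference 0.09), and Thrb had 3.27 and 2.95 FPKM in the same order (difference 0.11). The end of Thra overlaps that of Nr1d1, on the opposite strand, by 1075 bases, so reads there may have been counted for either gene. Of 6 genes of thyroid hormone metabolism and response at or above 1 FPKM, 1 was past 2-fold higher and 0 were lower. This was Klf9, a transcription factor gene that both thyroid hormone and glucocorticoids induce, with 137 FPKM in 14-3-3ζKO tissue and 54.1 FPKM in WT tissue (difference 1.32). The median of the 6 was 0.92, and that of all loci was 0.02. Dio1, whose difference of 0.90 lay next to that median of 0.92, reached a mean of 1 FPKM only through its 14-3-3ζKO value. It had 1.76 FPKM in 14-3-3ζKO tissue and 0.483 FPKM in WT tissue. Among all loci, 7.95% were past 2-fold higher and 4.38% lower.

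Among the receptors for vitamin D, bile acids, xenobiotics and oxysterols, the abundant Nr1h2 was level. Of the scarcer ones, Vdr and Nr1h4 had higher values in 14-3-3ζKO tissue, and Nr1i3, near 0 in both genotypes, had a lower one. Nr1h2, the oxysterol receptor LXRβ, had 39.3 FPKM in 14-3-3ζKO tissue and 39.5 FPKM in WT tissue (difference −0.01). Vdr, the vitamin D receptor, which like Nr1h4 reached a mean of 1 FPKM only through its 14-3-3ζKO value, had 1.63 FPKM in 14-3-3ζKO tissue and 0.586 FPKM in WT tissue, and its difference of 0.73 passed the 1.5-fold but not the 2-fold limit. Nr1h4, the bile acid receptor FXR, had 1.36 FPKM in 14-3-3ζKO tissue and 0.769 FPKM in WT tissue (difference 0.41). Nr1i3, the xenobiotic receptor CAR, had 0.0618 FPKM in 14-3-3ζKO tissue and 0.113 FPKM in WT tissue and overlaps Tomm40l on the other strand. In WT tissue, Nr1h2 was thus the only one of the 4 above 1 FPKM.

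Target genes of these receptors went both ways. Of 8 measured LXR target genes, 0 were past 2-fold higher and 2 were lower, beside 7.95% and 4.38% of all loci. Pltp, a phospholipid transfer protein, had 80.9 FPKM in 14-3-3ζKO tissue and 296 FPKM in WT tissue (difference −1.86), and Abcg1, a cholesterol exporter, had 7.35 and 26.8 FPKM in the same order (difference −1.74). Macrophages use both genes, and 13 of 15 measured macrophage markers were past 2-fold lower, with a summed level of 782 FPKM in 14-3-3ζKO tissue and 4395 FPKM in WT tissue (447 and 2084 FPKM in the same order without Lyz2). Of the 8 measured targets of the vitamin D, bile acid and xenobiotic receptors, 2 were past 2-fold higher and 0 were lower. The same shares of all loci, 7.95% and 4.38%, stand beside these counts. Cyp3a11, a drug-metabolising enzyme with several near-identical relatives between which reads can be divided wrongly, had 15.7 FPKM in 14-3-3ζKO tissue and 2.57 FPKM in WT tissue (difference 2.22). Abcb11, the bile salt export pump of hepatocytes, also reached a mean of 1 FPKM only through 14-3-3ζKO tissue and had 1.89 FPKM in 14-3-3ζKO tissue and 0.208 FPKM in WT tissue (difference 1.26). The hepatocyte markers given beside Hnf4a were higher as well, and the parts of macrophages and hepatocytes in these values were not tested.

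The receptors linked to the circadian clock had higher values in 14-3-3ζKO tissue without reaching a limit. Nr1d2, the repressor REV-ERBβ, had 19.5 FPKM in 14-3-3ζKO tissue and 14.6 FPKM in WT tissue (difference 0.40). Rora, an activator that competes with the REV-ERBs for the same sites, had 5.77 FPKM in 14-3-3ζKO tissue and 4.07 FPKM in WT tissue (difference 0.42). Rorb had 0.0311 FPKM in 14-3-3ζKO tissue and 0.0183 FPKM in WT tissue, both near 0. By the 2-fold rule, 7.95% of all loci were higher and 4.38% lower. None of the 6 measured REV-ERB and ROR target genes was past 2-fold, with differences of −0.39 to 0.82. The ones with the highest levels were Nfil3, a repressor of clock output, with 23.1 FPKM in 14-3-3ζKO tissue and 14.4 FPKM in WT tissue (difference 0.65), and Clock, a core clock activator, with 8.68 and 9.14 FPKM in the same order (difference −0.07). The labels do not give the hour at which tissue was taken.

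Esr1, the oestrogen receptor ERα, was the steroid receptor with the widest difference. It had 10.1 FPKM in 14-3-3ζKO tissue and 6.02 FPKM in WT tissue, and 13.8% of all loci had a difference above its 0.66. Esr2, which encodes ERβ, had 0.334 FPKM in 14-3-3ζKO tissue and 0.460 FPKM in WT tissue, so Esr1 was the more abundant oestrogen receptor gene in both genotypes. Nr3c2, the mineralocorticoid receptor, had 1.87 FPKM in 14-3-3ζKO tissue and 2.09 FPKM in WT tissue (difference −0.11). Pgr, the progesterone receptor, had 0.0179 FPKM in 14-3-3ζKO tissue and 0.0292 FPKM in WT tissue, both near 0. Of 10 measured genes of steroid metabolism and response, 1 was past 2-fold higher and 0 were lower, with a median difference of 0.54. This was Per1, a clock gene that glucocorticoids induce, with 30.3 FPKM in 14-3-3ζKO tissue and 14.0 FPKM in WT tissue (difference 1.06). Among all loci, 7.95% were past 2-fold higher and 4.38% lower, and the median difference was 0.02.

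The oestrogen-related receptors, orphans known for the control of mitochondrial genes, were not past a limit either. Esrra had 14.1 FPKM in 14-3-3ζKO tissue and 17.1 FPKM in WT tissue (difference −0.26). Esrrg had 1.48 FPKM in 14-3-3ζKO tissue and 0.808 FPKM in WT tissue (difference 0.46), and Esrrb had 0.0579 and 0.0603 FPKM in the same order. The abundant Esrra and the scarce Esrrg thus lay on opposite sides of 0. None of the 8 measured target genes was past 2-fold, where 7.95% of all loci were higher and 4.38% lower. The 2 most abundant were the locus that Atp5b, a subunit of ATP synthase, shares with Baz2a and Ptges3, with 1227 FPKM in 14-3-3ζKO tissue and 849 FPKM in WT tissue (difference 0.53), and Sdhb, a subunit of respiratory complex II, with 123 and 114 FPKM in the same order (difference 0.10).

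The COUP-TFs are orphan receptors that often repress, and COUP-TFII is known from mesenchymal and venous cells. Nr2f1 (COUP-TFI) had 2.34 FPKM in 14-3-3ζKO tissue and 1.27 FPKM in WT tissue (difference 0.56). Nr2f2 (COUP-TFII) had 7.17 FPKM in 14-3-3ζKO tissue and 4.81 FPKM in WT tissue (difference 0.49). Nr2f6, which shares their P-box, was level with 24.7 FPKM in 14-3-3ζKO tissue and 24.96 FPKM in WT tissue (difference −0.01), although 5239 of its 7838 bases overlap Ocel1 on the other strand. Nr2f1 and Nr2f2 share 65 of the 69 bases of the first finger. Both had higher values in 14-3-3ζKO tissue, with differences of 0.83 and 0.57 at a pseudocount of 0.1 FPKM, and Nr2f6 did not follow them. Whether likeness of sequence goes with likeness of difference was not tested.

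The steroidogenic receptors and the receptors without a DNA-binding domain were barely detected. Nr5a1, the steroidogenic factor SF-1, had 0.168 FPKM in 14-3-3ζKO tissue and 0.0334 FPKM in WT tissue, and Nr5a2 (LRH-1) had 0.406 and 0.307 FPKM in the same order. Nr0b1 (DAX-1), a repressor of SF-1, had 0.165 FPKM in 14-3-3ζKO tissue and 0.00724 FPKM in WT tissue. Nr0b2 (SHP), a corepressor of several receptors, had 0.0529 FPKM in 14-3-3ζKO tissue and 0.0201 FPKM in WT tissue. All 4 values were higher in 14-3-3ζKO tissue, but at levels far under 1 FPKM, where no error can be given. Markers of Leydig and adrenal steroidogenic cells summed to 38.8 FPKM in 14-3-3ζKO tissue and 16.7 FPKM in WT tissue. Without Insl3, whose locus also carries Jak3 (31.5 FPKM in 14-3-3ζKO and 9.29 FPKM in WT tissue), the other 7 summed to 7.25 FPKM in 14-3-3ζKO tissue and 7.46 FPKM in WT tissue. Of these, Cyp17a1, an enzyme of androgen synthesis, had 1.78 FPKM in 14-3-3ζKO tissue and 4.27 FPKM in WT tissue, and Cyp11b1 was listed at 0 in both genotypes. The part of such cells in the values of Nr5a1 and Nr0b1 was not tested. Of the 10 members under 1 FPKM, 5 had the higher value in 14-3-3ζKO tissue and 5 in WT tissue.

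**Figure D3:**
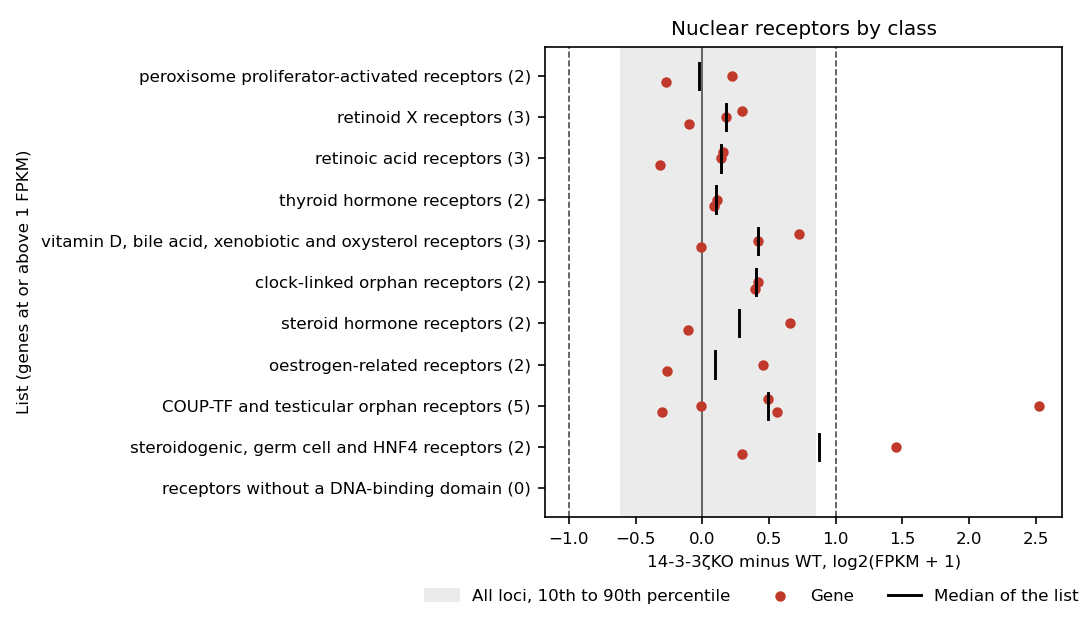
Difference of log2(FPKM + 1), 14-3-3ζKO minus WT, of each nuclear receptor that averaged at least 1 FPKM, by class (the number of such genes in brackets), with black bars for class medians, a grey band from the 10th to the 90th percentile of all loci (−0.61 to 0.85) and dashed lines at 2-fold. Only Nr2c2 and Hnf4a lie outside the grey band.

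Among the nuclear receptors outside the 36, those of the NR4A subfamily had the widest differences. Nr4a3 (NOR1), an orphan receptor that stimuli induce within a short time, had 7.96 FPKM in 14-3-3ζKO tissue and 1.57 FPKM in WT tissue (difference 1.80). Nr4a1 (NUR77), of the same subfamily, had 46.7 FPKM in 14-3-3ζKO tissue and 17.8 FPKM in WT tissue (difference 1.34). Of the 9 such receptors at or above 1 FPKM, these 2 were past 2-fold higher and 0 were lower. Among all loci, 7.95% were higher and 4.38% lower. Nr2e1 was listed at 0 in both genotypes.

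The coregulators that the members share stayed within 2-fold. Of 11 measured coactivators, 0 were past 2-fold in either direction, with differences of −0.39 to 0.61. Ncoa4, also known for its role in ferritin turnover, had 57.2 FPKM in 14-3-3ζKO tissue and 55.4 FPKM in WT tissue (difference 0.04), and Pprc1, of the PGC-1 family, had 14.0 and 8.84 FPKM in the same order (difference 0.61). Of 10 measured corepressors, 0 were past 2-fold, with differences of −0.21 to 0.51. Hdac3, the deacetylase of the NCoR complex, had 50.0 FPKM in 14-3-3ζKO tissue and 34.8 FPKM in WT tissue (difference 0.51), and Ncor1, its scaffold, had 40.8 and 36.7 FPKM in the same order (difference 0.15). Over all 11 related lists, 103 of 130 genes averaged at least 1 FPKM, and 12 of them (11.7%) were past 2-fold higher and 2 (1.94%) lower, beside 7.95% and 4.38% of all loci. Of the 12 higher genes, 2 (Crabp1 and Abcb11) had under 1 FPKM in WT tissue.

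**Figure D4:**
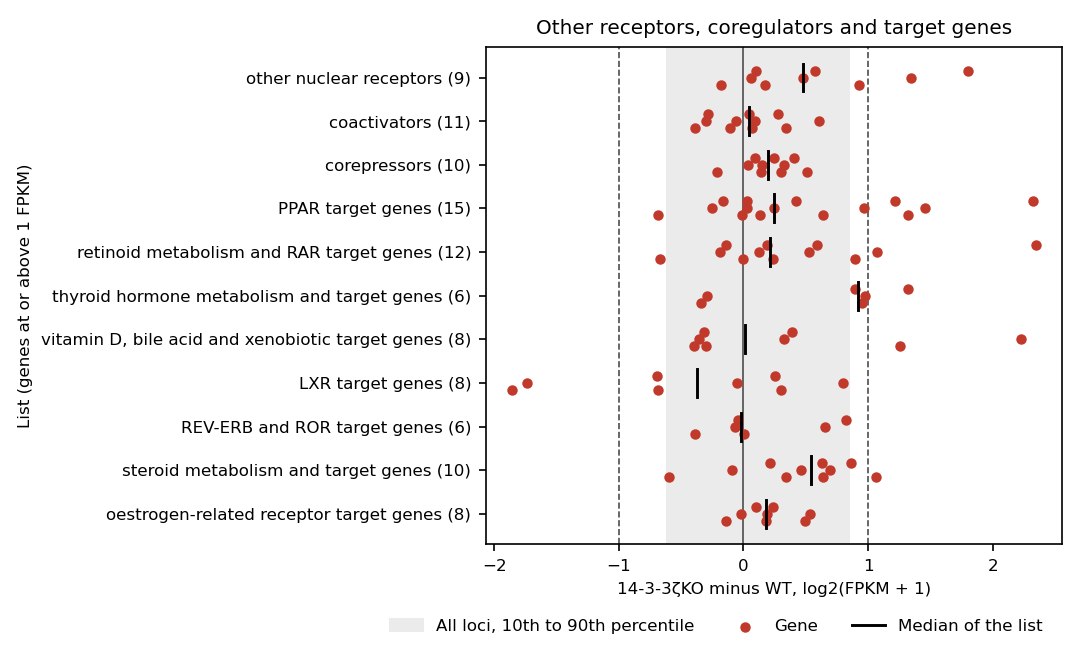
Difference of log2(FPKM + 1), 14-3-3ζKO minus WT, of the genes at or above 1 FPKM in 11 lists of other nuclear receptors, coregulators and target genes, with medians (black bars), the 10th to 90th percentile of all loci (grey band) and 2-fold limits (dashed). The coactivators and corepressors lie within the dashed lines, and Pltp (−1.86) and Abcg1 (−1.74) of the LXR targets are the 2 genes past the lower one.

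The cell type lists place the members' values in the tissue they came from. Adipocyte markers were high in both genotypes, as were markers of the epididymal epithelium. By the 2-fold rule, 7.95% of all loci were higher and 4.38% lower, and these shares stand beside the counts of every cell type list. The T and B cell markers had 2 of 7 genes past 2-fold higher (36.4 FPKM summed over all 8 listed in 14-3-3ζKO and 20.5 FPKM in WT tissue), the stromal precursor markers had 1 of 7 lower (1025 and 980 FPKM in the same order), and the endothelial markers had 0 of 7 past the limit (190 and 149 FPKM). Of 5 brown adipocyte markers, 3 averaged at least 1 FPKM. Of these, Ucp1 was past 2-fold lower, with 0.653 FPKM in 14-3-3ζKO tissue and 2.57 FPKM in WT tissue. Cidea and Cox8b were higher, with differences of 0.95 and 0.72. All 5 summed to 79.3 FPKM in 14-3-3ζKO tissue and 48.7 FPKM in WT tissue. A single Sertoli cell marker, Clu, which other cells also express, reached 1 FPKM.

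**Figure D5:**
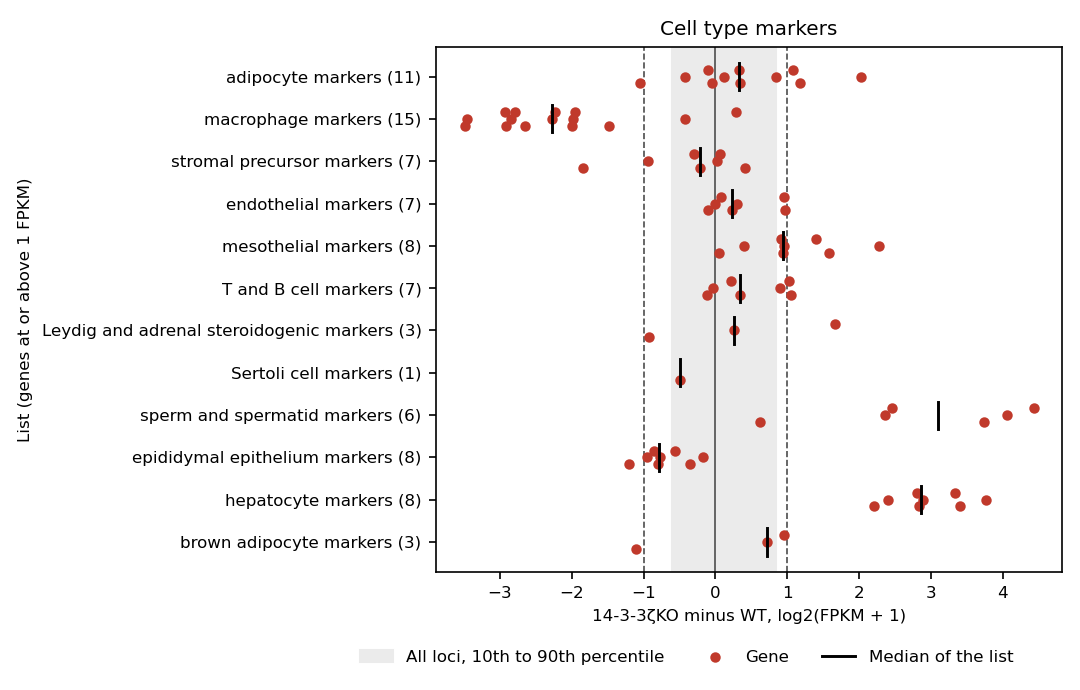
Difference of log2(FPKM + 1), 14-3-3ζKO minus WT, of cell type markers at or above 1 FPKM, by list, with medians (black bars), the 10th to 90th percentile of all loci (grey band) and 2-fold limits (dashed). Macrophage markers lie mostly left of the lower limit, and the hepatocyte markers and most sperm markers lie right of the upper one.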

How the data were processed

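RNA of gonadal white adipose tissue from 5 14-3-3ζKO and 6 WT samples was sequenced. Per the submitters' processing notes, reads were aligned with TopHat2 2.0.11 to NCBIM37 and quantified with Cufflinks 2.2.0 and Cuffdiff. For 42815 loci the authors deposited 1 FPKM value per group, and for 86 loci 1 per library. The group value matched the mean of the libraries (relative difference at most 5.21e-06) in all 169 values compared except that of C1qb in WT tissue (464 against 359 FPKM). The scaling between libraries was not given in the sources used. The authors' own columns of fold changes, test statistics, p-values and q-values were not used.

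Differences of log2(FPKM + 1), 14-3-3ζKO minus WT, were computed with python 3.11.15, numpy 2.4.6 and pandas 2.3.3, and understate the change of low genes. With 1 value per group no test, SD or interval was possible. Members and lists were chosen with earlier results of these data known. All members were named. In each related list, genes past 2-fold (at most 4) or otherwise the 2 with the highest mean were named. Pparg, Mrps25, Fgf21, Dio1 and single cell type markers were named outside this rule. Of the listed symbols, Adgre1, Slc51a, Slc51b, Sts, Perm1 and Rhox5 matched no locus. Alternatives were other pseudocounts (0.1 and 0.5), floors (none and 5 FPKM) and folds (1.5 and 3), recentring, and loci of 1 symbol only. Plots used matplotlib 3.10.9.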

Additional observations from a re-analysis of the deposited data

How the results depend on the processing

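The count of members past 2-fold higher was 2, and it was 1 with a floor of 5 FPKM (Nr2c2, since Hnf4a averaged less), 4 with a 1.5-fold limit (with Vdr and Esr1) and 1 with a 3-fold limit (Nr2c2). With a pseudocount of 0.1 FPKM it was 3, with Vdr added. The share of all loci past the limit higher was 7.95% in the main setting. It was 4.99% with the floor of 5 FPKM, 15.7% with 1.5-fold, 3.65% with 3-fold and 10.4% with the pseudocount of 0.1 FPKM. The count of members past the limit lower was 0 under every alternative run, where 1.77% (no floor) to 10.7% (1.5-fold) of all loci were lower. The median difference of the members ranged from 0.11 (floor of 5 FPKM) to 0.27 (pseudocount of 0.1 FPKM). Of 144 recomputed differences of single members, 140 moved little and 4 moved by over 1.5-fold, each with a pseudocount of 0.1 FPKM, at which Hnf4a had 2.27, Vdr 1.33, Nr0b1 1.31 and Nr5a1 1.01. In 0 of the 104 recomputed differences of members at or above 1 FPKM did the sign change, but only recentring could have changed it. A pseudocount cannot change a sign, and loci of 1 symbol only gave every member the same value as before. Recentring subtracted the median of all loci, 0.02, so the unchanged signs say little about how stable the differences are. No paired analysis was possible because the members have 1 value per genotype and none per library, and for the same reason no replicate could be left out. Depth per library is not known, so values under 1 FPKM carry no stated precision.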
